A study of Mus musculus with 16 samples.

Results

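The comparison described here is that of running with sedentary life in the p16 knockout, measured in dentate gyrus RNA. It takes the 4 libraries of p16 KO RUN (replicates 13 to 16) and the 4 of p16 KO CTL (replicates 5 to 8), 8 of the 16 libraries of the series, chosen by their labels for genotype and treatment and not by any measured value. All mice of both groups were homozygous p16Ink4a -/- males aged 1 year. The allele was made in the FVB strain and was crossed into C57BL/6. It leaves p19Arf, the other product of the Cdkn2a locus, functional. The p16 KO RUN mice ran voluntarily on a wheel for 12 days, whereas the p16 KO CTL mice stayed in standard cages. Each library was made from the messenger RNA of the dissected dentate gyri of 2 pooled mice, so the spread between libraries is that between pairs of mice. The same 12 days of running in p16 wild-type males of the same age (p16 WT RUN against p16 WT CTL, 4 libraries each) were measured in other libraries, and are set beside the knockout where stated.

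The dentate gyrus is the entry region of the hippocampus. Its principal cells are the granule neurons, and at their inner border lies a layer of radial glia-like stem cells that pass through dividing progenitors and neuroblasts to new granule neurons. Voluntary running is known to raise the activity of granule neurons and the birth of new ones, while p16, an inhibitor of the kinases CDK4 and CDK6, holds cells before DNA replication and becomes more abundant with age. The study asked which genes go with the response of the aged stem cell niche to running when p16 is absent.

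Values are TPM (a length-corrected share of a library's RNA), and per-library values are given in the order of the replicate numbers. Fold changes are on the scale log2(scaled TPM + 0.1), p16 KO RUN over p16 KO CTL, each with its standard error (SE), and come from limma, a linear model with variances moderated across genes. A gene is said to have risen or fallen where its unadjusted p was under 0.05, the threshold used by the study. Adjusted p-values are those of Benjamini and Hochberg over the 17317 tested genes of the 24421 listed. Overlap between groups was judged on the scaled values, and a pair of groups may overlap slightly in the TPM given. Since every library is bulk tissue, fewer cells of a type and less RNA per cell cannot be told apart.

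The libraries did not all resemble each other. Aligned bases came to 7.78, 8.80, 14.6 and 7.91 gigabases in p16 KO CTL and to 6.90 to 7.63 gigabases in p16 KO RUN, a depth for whole libraries that does not give the counting error of a single gene. Replicates 6 and 7 of p16 KO CTL stood apart: long noncoding RNAs that stay in the nucleus summed to 1659 and 1736 TPM in them against 3239 and 3440 TPM in replicates 5 and 8 and 3136 to 3531 TPM in p16 KO RUN, and the genes of the cytosolic ribosome summed to 69050 and 64830 TPM against 49800 to 54510 TPM in the other 6 knockout libraries. Replicate 8 of p16 KO CTL differed in another way. Its granule neuron markers summed to 1056 TPM, against 1542 to 2718 TPM in the other 7 knockout libraries, and its markers of CA1, the neighbouring hippocampal field, to 706.1 TPM against 263.7 to 442.3 TPM. Results are therefore given with and without replicates 6 and 7, a choice made after seeing the data, and without replicate 8 for some genes and lists.

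**Figure D1:**
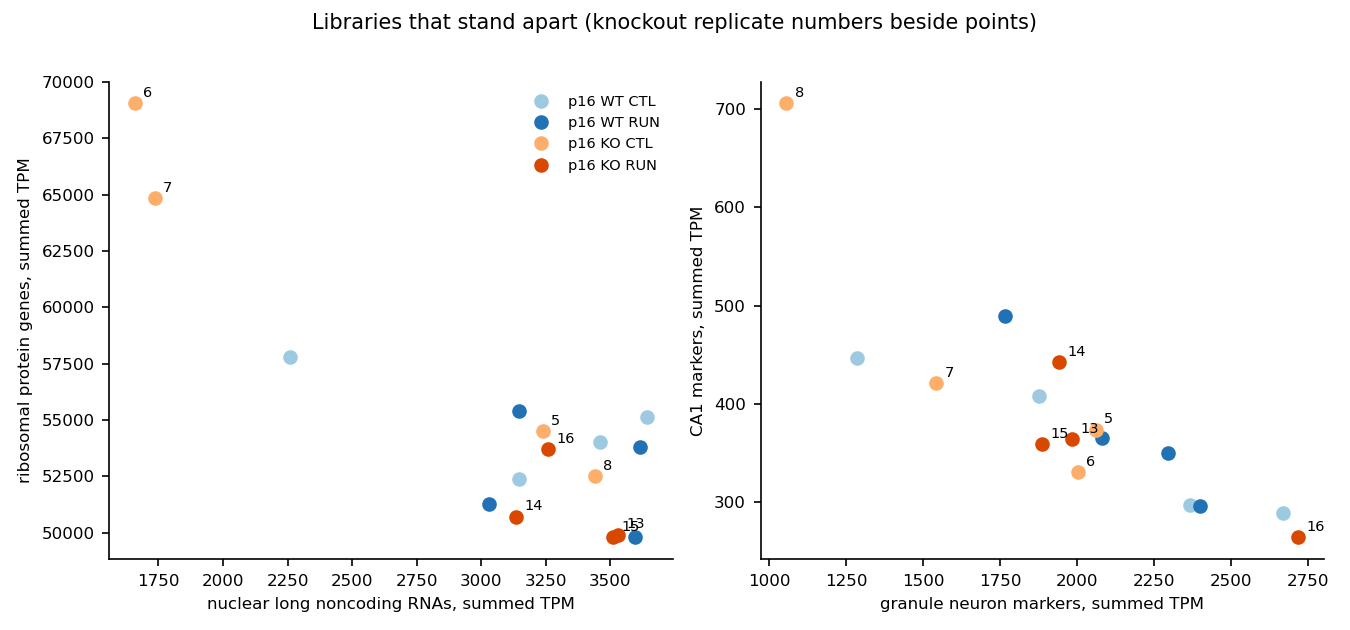
Each point is 1 of the 16 libraries, coloured by group, with the replicate numbers of the knockout libraries. Left: summed TPM of nuclear long noncoding RNAs (x) against ribosomal protein genes (y), where p16 KO CTL replicates 6 and 7 lie at the upper left. Right: summed TPM of granule neuron markers (x) against CA1 markers (y), where p16 KO CTL replicate 8 lies at the upper left with 1056 and 706.1 TPM.

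The tissue carried the defining markers of its label. Prox1, the transcription factor that specifies granule neurons, lay at 58.1 to 145 TPM in 7 of the knockout libraries and at 187 TPM in p16 KO RUN replicate 16. Cdkn2a was listed at 0 TPM in 5 of the 8 knockout libraries and at up to 0.413 TPM in the others, and in p16 WT at up to 0.586 TPM, so the locus was near the lower limit in every group. As it also encodes p19Arf, its gene-level value does not check the genotype.

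After running, 3200 of the 17317 tested genes passed the unadjusted threshold (18.5%), of which 1857 rose (10.7%) and 1343 fell (7.76%). With adjustment by Benjamini and Hochberg in limma, 3 genes passed at 0.05 (0.0173%) and 43 at 0.1 (0.248%). The 4 running libraries did not overlap the 4 sedentary ones for 1799 genes (10.4%), the arrangement for which the two-sided exact permutation test gives 0.0286, its smallest possible p. Without replicates 6 and 7, 1472 genes passed unadjusted (8.5%, 4.93% raised and 3.57% lowered) and 0 adjusted. Of the 1857 raised genes 679 were again called, and of the 1343 lowered genes 407. None of the 3200 changed sign, called again or not, but this fit reuses libraries on which they were called. Without replicate 8, 3640 genes passed unadjusted (21.0%, 12.8% raised and 8.27% lowered). Running in p16 WT gave 834 unadjusted calls (4.82%, 2.67% raised and 2.14% lowered) and 0 adjusted ones.

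The genes most clearly raised by running were an E3 ubiquitin ligase, a fatty acid transport protein and a secreted activity-regulated factor. Hectd2, the ligase (chr19:36554639-36621135, mm10, + strand), was at 22.6, 17.8, 19.7 and 22.7 TPM in p16 KO CTL and at 39.6, 48.4, 51.8 and 50.9 TPM in p16 KO RUN, a log2 fold change of 1.13 (SE 0.10, limma adjusted p = 0.026). Slc27a3, of the fatty acid transport protein family (chr3:90385233-90389927, - strand), was at 12.2, 9.21, 9.99 and 9.38 TPM and then at 19.2, 22.2, 20.5 and 20 TPM, a log2 fold change of 0.94 (SE 0.10, limma adjusted p = 0.039). Inhba, the inhibin beta A subunit that forms activin A (chr13:16014475-16027211, + strand), was at 5.81, 6.79, 6.74 and 5.36 TPM and then at 16.4, 24.1, 15.5 and 19.3 TPM, a log2 fold change of 1.51 (SE 0.17, limma adjusted p = 0.039). In all 3 genes every running library lay above every sedentary one. Without replicates 6 and 7 the unadjusted calls stood, with log2 fold changes of 1.04, 0.91 and 1.69, while the limma adjusted p-values came to 0.26, 0.32 and 0.26.

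Inhba belongs to the genes that neurons switch on some hours after activity, and part of this group rose with it. Of 26 tested activity-regulated effectors, 8 rose and 0 fell, with a median log2 fold change of 0.29 against 0.02 over all tested genes, and 7 rose without replicates 6 and 7 and 13 without replicate 8. All tested genes gave 10.7% raised, 4.93% without replicates 6 and 7 and 12.8% without replicate 8. Nptx2, a pentraxin that clusters AMPA receptors at synapses (chr5:144545887-144557478, + strand), was at 17.6, 13.9, 20 and 19.3 TPM in p16 KO CTL and at 37.5, 61.4, 47.5 and 44.3 TPM in p16 KO RUN (log2 fold change 1.35, SE 0.17). Bdnf, the neurotrophin that supports synaptic plasticity and neurogenesis, was at 42.3, 41.4, 48.5 and 46.5 TPM and then at 59.9, 76.6, 71.9 and 73.1 TPM (log2 fold change 0.59, SE 0.10). Neither gene overlapped between the groups. Penk, the enkephalin precursor, rose by 0.71 on the log2 scale, and Ptgs2, the inducible cyclooxygenase, by 0.65, although the groups overlapped in both. Vgf, another activity-regulated prohormone, spanned 136 to 247 TPM in p16 KO CTL and 164 to 308 TPM in p16 KO RUN and did not pass the test, and neither did Nptx1, the constitutive relative of Nptx2, with a log2 fold change of 0.01.

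The fast transcription factors split. Of 22 immediate early genes, 5 rose and 0 fell, and without replicates 6 and 7 4 rose and 1, Dusp1, fell. Without replicate 8, 7 rose. The median of the list was 0.20 with all libraries, -0.14 without replicates 6 and 7 and 0.40 without replicate 8. Raised genes made up 10.7% of all tested genes, 4.93% without replicates 6 and 7 and 12.8% without replicate 8. Atf3, a stress- and activity-induced member of the ATF family, was at 1.22, 1.20, 1.89 and 1.10 TPM in p16 KO CTL and at 5.05, 3.78, 3.92 and 3.53 TPM in p16 KO RUN (log2 fold change 1.48, SE 0.22). Fosl2, a Fos-family subunit of AP-1, rose from 23.7 to 29.2 TPM to 39.2 to 44.5 TPM (log2 fold change 0.60, SE 0.07), and Egr3 from 84.3 to 95.0 TPM to 119 to 134 TPM (0.43, SE 0.06). In these 3 genes the groups did not overlap. Fos, Arc, Egr1 and Nr4a1, which peak soon after stimulation, gave log2 fold changes of 0.23, 0.35, 0.19 and 0.10 and did not pass, and their spread within groups was wide: Arc lay at 72.9, 38.2, 46.2 and 107 TPM in p16 KO CTL and at 83.3, 120, 124 and 34.8 TPM in p16 KO RUN. Npas4 rose by 1.25 with all libraries, but lost its call without replicates 6 and 7 (0.48, limma unadjusted p = 0.33).

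Several genes around Inhba changed, in both directions. Activin binds type 2 and type 1 receptors that act through SMAD proteins, and follistatin is its secreted antagonist. Of the ligands, Inhba rose and Inhbb, the beta B subunit, fell by 0.64 on the log2 scale, and Tgfb2 fell by 0.31. Fst, which encodes follistatin, was at 4.78, 3.69, 3.97 and 1.99 TPM in p16 KO CTL and at 6.42, 9.13, 11.4 and 12.2 TPM in p16 KO RUN (log2 fold change 1.38, SE 0.29). Of the 8 SMAD genes measured 0 passed, and neither did the receptors Acvr1b and Acvr2b. Of the other receptors, Acvr2a rose by 0.35, a call lost without replicates 6 and 7, Acvr1c (ALK7) rose from 13.4 to 18.2 TPM to 25.5 to 36.4 TPM (0.95, SE 0.14) and Acvr1 (ALK2) from 40.4 to 49.3 TPM to 55.6 to 64.5 TPM (0.39, SE 0.07). Pmepa1, which was not in the list, encodes a membrane protein that restrains TGF-beta and activin signals and is itself induced by them, and was at 16.1, 13.9, 14.8 and 13.2 TPM and then at 23.0, 36.3, 29.2 and 30.4 TPM (0.95, SE 0.14). In the 7 called genes given up to here other than Acvr2a the groups did not overlap, and all 7 kept an unadjusted p under 0.05 without replicates 6 and 7. Nog, which encodes the BMP antagonist noggin, fell from 11.2 to 18.4 TPM to 8.17 to 11.4 TPM, a log2 fold change of -0.68 that was -0.33 without replicates 6 and 7, the libraries in which it was highest. In the whole list of 37 activin and BMP genes 7 rose and 5 fell, and 5 and 3 without replicates 6 and 7. The shares over all tested genes were 10.7% and 7.76%, and 4.93% and 3.57% without those replicates. Among the lowered genes of the list was the receptor Tgfbr1 (-0.35). It lost its call without replicates 6 and 7 (-0.19, limma unadjusted p = 0.146).

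**Figure D2:**
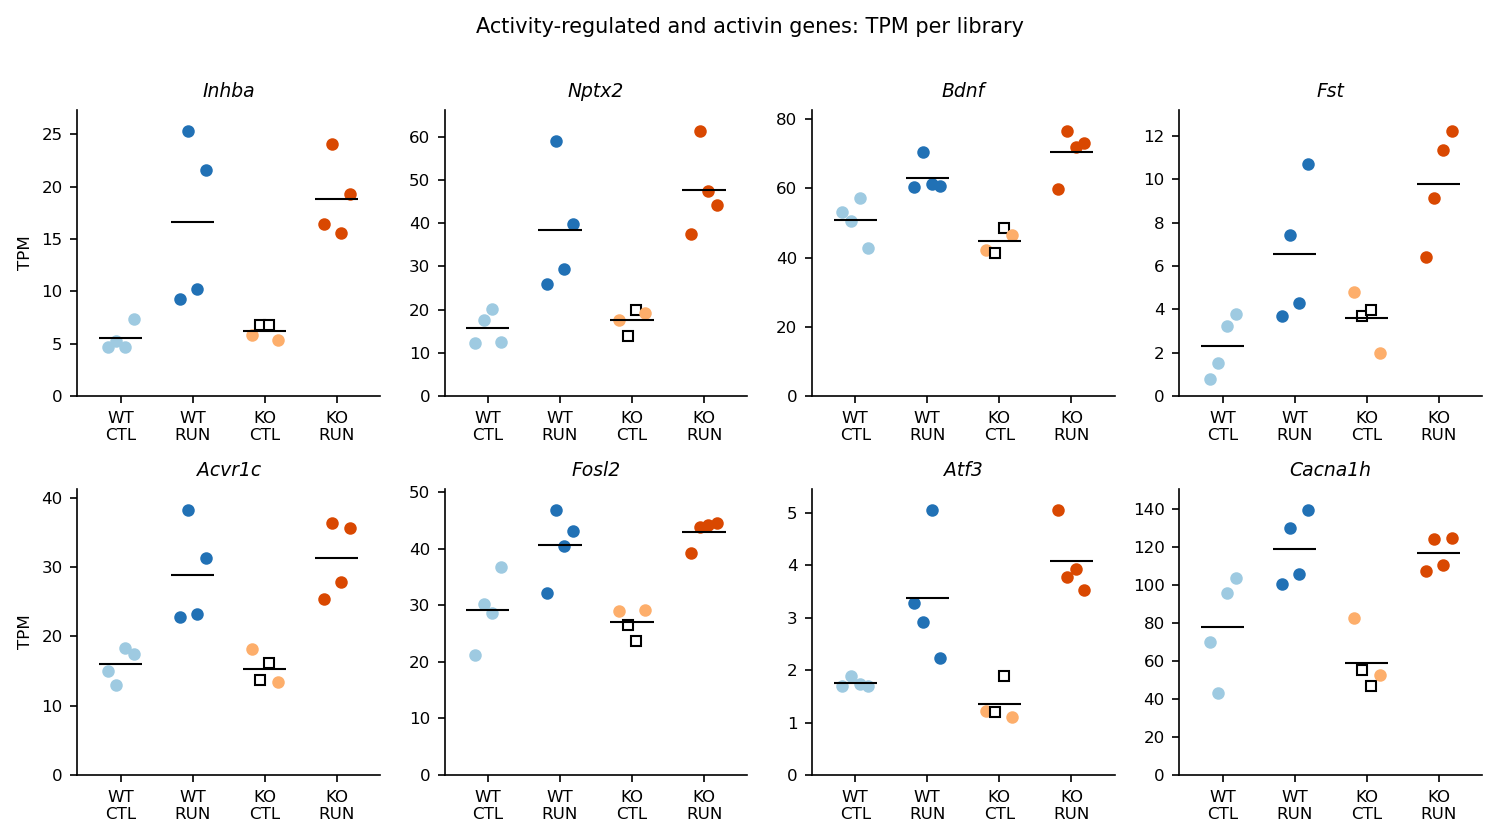
TPM (y, from 0) of 8 genes in each library of the 4 groups (x), with a bar at the group mean. Open squares are p16 KO CTL replicates 6 and 7. In the knockout the running libraries lie above all sedentary ones in every panel, as for Inhba with 15.5 to 24.1 against 5.36 to 6.79 TPM.

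Other genes were among the 15 raised ones of smallest p. Slc38a5, a glutamine transporter, rose from 2.71 to 4.16 TPM to 8.34 to 16.4 TPM (log2 fold change 1.82, SE 0.24). Slc25a42, a mitochondrial carrier of coenzyme A, rose from 24.7 to 36.1 TPM to 47.1 to 56.1 TPM (0.78, SE 0.10). Agmat, named for agmatinase, was the weakest expressed of them, at 0.115 to 0.447 TPM and then 1.24 to 3.47 TPM (2.61, SE 0.39). Lpin2, a phosphatidate phosphatase of lipid synthesis, rose by 0.39 and Tanc1, a postsynaptic scaffold protein, by 0.51. Tvp23a and Galnt14, a mucin-type glycosyltransferase, rose by 0.40 and 0.38. These 7 genes were chosen for having no overlap between the groups, and all 7 remained called without replicates 6 and 7. Agmat reached the mean of 1 TPM that the choice also required only through the running libraries.

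The lowered genes of smallest p changed less. The 15 of them lay between log2 fold changes of -0.29 and -0.76. Ntm, the adhesion protein neurotrimin, was at 92.5, 105, 104 and 101 TPM in p16 KO CTL and at 74.1, 75.2, 78.3 and 76.3 TPM in p16 KO RUN (-0.47, SE 0.07). Tmem114 was at 13.4 to 17.9 TPM and then at 8.22 to 10.3 TPM (-0.76, SE 0.12). Psme1 and Psme2, the 2 subunits of the PA28 proteasome activator, fell by 0.35 each. Pou3f3, a POU transcription factor of the forebrain, fell from 54.1 to 63.6 TPM to 48.5 to 54.6 TPM (-0.29, SE 0.05), and Pantr1, the noncoding gene beside it (chr1:42648200-42694825 on the - strand, with Pou3f3 at chr1:42697146-42700209 on the + strand), from 61.6 to 72.2 TPM to 41.6 to 53.5 TPM (-0.56, SE 0.10). Efhd1, Snapc5, Smim15, Sh3bgrl, Fam213b, Fam103a1, Mrpl23, March1 and Pla2g16 completed the 15, between -0.36 and -0.56. Each of the 15 kept its call without replicates 6 and 7.

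Some genes of cell division rose in the knockout. Of 33 tested genes of mitosis and G2/M, 13 rose and 0 fell, with a median log2 fold change of 0.56, and 28 of the 33 were above 0. Without replicates 6 and 7, 10 rose and 0 fell, with a median of 0.44, and without replicate 8, 9 rose and 0 fell. With a covariate for nuclear RNA in the fit, 10 rose and 1 fell, where 1180 of all 17317 tested genes rose and 888 fell. The raised share over all tested genes was 10.7%, or 4.93% without replicates 6 and 7 and 12.8% without replicate 8. Mki67, which encodes the proliferation antigen Ki67 (chr7:135689788-135716379, - strand), was at 1.00, 0.63, 0.491 and 0.818 TPM in p16 KO CTL and at 1.97, 1.80, 2.15 and 2.19 TPM in p16 KO RUN (log2 fold change 1.32, SE 0.22, limma adjusted p = 0.086). Top2a, the topoisomerase of replicating and condensing chromosomes (chr11:98992947-99024189, - strand), was at 0.367, 0.293, 0.492 and 0.276 TPM and then at 0.763, 1.36, 0.844 and 0.958 TPM (1.18, SE 0.28). Cdk1, the kinase that drives entry into mitosis (chr10:69336635-69352912, - strand), was at 0, 0.0934, 0.143 and 0.0377 TPM and then at 0.200, 0.203, 0.372 and 0.289 TPM (1.13, SE 0.39). Every running library lay above every sedentary one in these 3 genes, at levels of at most 2.19 TPM, where the tables give no read counts and the counting error is not known. For Cdk1 most sedentary values lay below the 0.1 TPM added before the logarithm. The size of its fold change therefore depends on that constant.

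Cyclin A2 (Ccna2) lay at 1.61, 0.818, 0.656 and 1.86 TPM and then at 2.24, 2.19, 2.28 and 3.05 TPM (log2 fold change 0.97), and was lowest in sedentary replicates 6 and 7, without which the change was 0.44 (limma unadjusted p = 0.073). Prc1, a spindle midzone protein, showed the same order, from 0.94 to 0.53 without them. Top2a and Cdk1 went the other way, to 1.32 and 1.60. Racgap1, a regulator of cytokinesis, rose by 0.61, and Cenpf, a kinetochore protein, by 0.62, though Cenpf lost its call without replicate 8 (0.50, limma unadjusted p = 0.078). Ccnb1, cyclin B1, reached a log2 fold change of 0.98 without passing (limma unadjusted p = 0.056), and Aurkb, a mitotic kinase, was at 0 TPM in 1 library of each group and did not pass (0.18).

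Many promoters of the mitosis genes carry a shared pair of short sequences. Genes that peak in G2 and mitosis are known to be controlled through CCAAT boxes and through a cell cycle homology element whose core reads TTTGAA, with TTCGAA as a variant. The promoters of Mki67, Top2a and Cdk1 are shown as 3 examples from the raised genes. Each runs from 250 bases before to 50 after the start of the RefSeq transcript in build GRCm38.p6, 5′ to 3′ on the strand of the gene, with CCAAT boxes and both forms of the core in capitals, read on either strand, so that some appear as their reverse complements. They lie at chr7:135716330-135716629, chr11:99024140-99024439 and chr10:69352863-69353162, all on the - strand.
Mki67: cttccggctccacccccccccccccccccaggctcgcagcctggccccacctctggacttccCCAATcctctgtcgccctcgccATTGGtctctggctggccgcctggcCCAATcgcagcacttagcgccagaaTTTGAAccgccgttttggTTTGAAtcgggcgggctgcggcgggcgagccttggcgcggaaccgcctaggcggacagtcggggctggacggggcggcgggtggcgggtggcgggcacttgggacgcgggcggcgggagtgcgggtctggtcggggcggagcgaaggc
Top2a: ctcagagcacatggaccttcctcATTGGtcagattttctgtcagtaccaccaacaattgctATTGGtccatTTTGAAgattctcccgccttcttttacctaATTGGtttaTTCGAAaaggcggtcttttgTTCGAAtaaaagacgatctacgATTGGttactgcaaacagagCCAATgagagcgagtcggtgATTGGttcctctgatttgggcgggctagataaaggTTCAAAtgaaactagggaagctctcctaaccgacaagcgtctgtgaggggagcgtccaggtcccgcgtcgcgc
Cdk1: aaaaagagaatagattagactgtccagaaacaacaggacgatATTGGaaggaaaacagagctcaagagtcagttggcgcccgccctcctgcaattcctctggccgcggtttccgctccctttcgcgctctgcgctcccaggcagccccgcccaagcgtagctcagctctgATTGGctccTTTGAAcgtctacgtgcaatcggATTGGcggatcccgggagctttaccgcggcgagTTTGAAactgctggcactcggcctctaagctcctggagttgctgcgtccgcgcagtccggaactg

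RefSeq promoters were matched by symbol for 28 of the 33 tested mitosis genes. CCAAT was found in 23 of them (82.1%) and TTTGAA in 24 (85.7%), where 37.9% and 18.1% of the 27025 symbols with a promoter of this length hold them. A CCAAT box together with either form of the core was present in 21 of the 28 (75.0%) and in 7.7% of all symbols. Among the raised genes, 11 of the 11 with a promoter held both. These matches describe the list, whose members share a function, and no activity of the sequences was measured. Of 36 promoters of the activity lists, 5 (13.9%) held the cAMP response element TGACGTCA on either strand, against 1.88% of all symbols, and 1 of 10 of their raised genes, that of Scg2, did. The AP-1 site TGANTCA was found in 0 of the 36 and in 7.93% of all symbols.

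Some genes of DNA replication rose too. Of 38 genes of origin licensing, polymerases and nucleotide supply, 7 rose and 0 fell, with a median log2 fold change of 0.13, and 4 rose without replicates 6 and 7 (without replicate 8, 4 rose and 1 fell). Among all tested genes 10.7% rose, 4.93% without replicates 6 and 7 and 12.8% without replicate 8. Without replicate 8 the list did not exceed that share. Pole, the catalytic subunit of polymerase epsilon, rose from 0.499 to 1.03 TPM to 1.34 to 1.70 TPM (0.98, SE 0.24), and Cdt1, a licensing factor, from 0.831 to 1.01 TPM to 1.13 to 1.85 TPM (0.70). Pcna, the replication clamp, which is also used in DNA repair, was at 76.5 to 88.1 TPM in p16 KO CTL and at 74.7 to 82.7 TPM in p16 KO RUN and did not pass. Of the inhibitors of the cell cycle, Cdkn1a (p21) was at 7.06, 6.34, 7.06 and 8.54 TPM and then at 12.7, 19.6, 18.5 and 10.5 TPM (0.96, SE 0.21), whereas Cdkn1b (p27) fell by 0.11, a call that was lost without replicates 6 and 7 at a log2 fold change of -0.08. Cdkn2b (p15), the neighbour and relative of p16, and Ccnd1, cyclin D1, did not pass, with log2 fold changes of -0.27 and -0.21.

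Single markers of the neurogenic lineage went both ways. Eomes (Tbr2), which marks intermediate progenitors, was at 0.364, 0.220, 0.340 and 0.138 TPM in p16 KO CTL and at 0.389, 0.770, 0.762 and 0.639 TPM in p16 KO RUN (log2 fold change 0.98, SE 0.33). Igfbpl1, a neuroblast marker, was at 0.390, 0.766, 0.581 and 0.643 TPM and then at 0.890, 2.15, 1.54 and 2.60 TPM (1.32, SE 0.35). Neither overlapped between the groups, though the lowest running library, replicate 13 in both, lay close to the highest sedentary one. Neurod2, a transcription factor of granule neurons, rose by 0.50, and Draxin, an axon guidance protein, by 0.67. The common markers of immature neurons did not pass: Dcx (doublecortin) was at 2.68 to 5.48 TPM and at 4.04 to 4.65 TPM, and Neurod1, Sox11 and Calb2 gave log2 fold changes of 0.09, 0.15 and 0.02. Stmn1, a tubulin-binding protein abundant in young neurons, fell from 326 to 364 TPM to 265 to 306 TPM (-0.35, SE 0.07). Of the 22 genes of this list 4 rose and 2 fell (3 and 1 without replicate 8), the other being Elavl2, an RNA-binding protein of neurons. All tested genes gave 10.7% raised and 7.76% lowered (12.8% and 8.27% without replicate 8), and nothing is read from the list as a whole. Draxin and Elavl2 lost their calls without replicates 6 and 7, with log2 fold changes of 0.595 and -0.464 (limma unadjusted p = 0.137 and 0.113).

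Of 24 stem cell markers, 8 fell and 1, Vim (vimentin), rose, where 7.76% of all tested genes fell and 10.7% rose. Without replicate 8, 8 fell and 2 rose, where the shares were 8.27% and 12.8%. Sox9 was at 33.2, 39.2, 35.6 and 33.3 TPM in p16 KO CTL and at 28.6, 28.2, 27.0 and 25.9 TPM in p16 KO RUN (-0.43, SE 0.09). Sox2 was at 61.3, 76.9, 70 and 58.0 TPM and then at 54.8, 50.8, 50.1 and 57.4 TPM (-0.38, SE 0.11), and Hopx, a marker of quiescent stem cells, fell by 0.74. Sox2 and Sox9 are also made by astrocytes, and sedentary replicates 6 and 7 held the highest level of both and the highest astrocyte sums. The part of astrocytes in the stem cell values was not tested. The 15 astrocyte markers summed to 3891, 4925, 4689 and 3443 TPM in p16 KO CTL and to 3609 to 3991 TPM in p16 KO RUN. Without replicates 6 and 7, 3 stem cell markers fell (Sox9 by 0.30, Sox2 by 0.18 and Hopx by 0.73) and 1 astrocyte marker fell, in place of 5 with all libraries and 8 without replicate 8. Of all tested genes 3.57% fell and 4.93% rose without replicates 6 and 7. The rise of Vim was then 0.15 and lost its call, while Thrsp, named for a thyroid hormone response, rose by 0.39. Nes (nestin), Gfap and Hes5 did not pass in either fit.

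**Figure D3:**
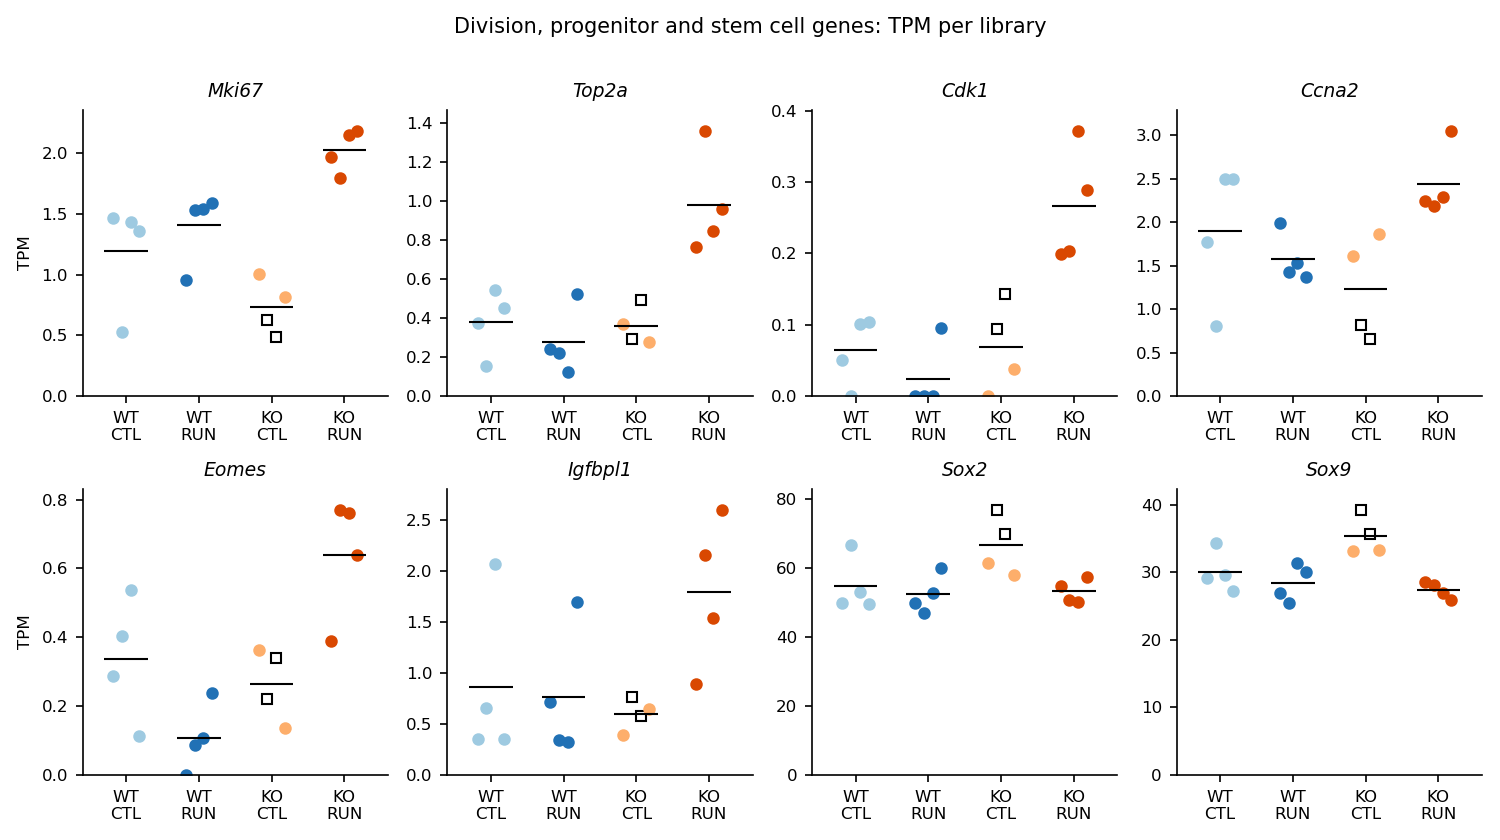
TPM (y, from 0) of 8 genes of division, progenitors and stem cells in each library of the 4 groups (x), with a bar at the group mean and open squares for p16 KO CTL replicates 6 and 7. Top2a and Cdk1 are highest in p16 KO RUN, at 0.763 to 1.36 and 0.200 to 0.372 TPM, while Sox9 is lower there than in p16 KO CTL.

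Some genes of receptors and ion channels changed. The low-voltage calcium channels Cacna1h and Cacna1g, which shape burst firing, rose from 46.6 to 82.5 TPM to 108 to 125 TPM (0.95, SE 0.14) and from 8.33 to 17.6 TPM to 23.5 to 34.2 TPM (1.07, SE 0.22). Of 34 sodium and calcium channel genes, 10 rose and 1 fell, but without replicates 6 and 7 2 rose, these 2 channels. Grin2a, an NMDA receptor subunit, rose by 0.45, Grm2, a presynaptic glutamate receptor of granule neurons, by 0.90, Grm7 by 0.29, Kcnj6, an inward rectifier potassium channel, by 0.51, and Drd1, a dopamine receptor, by 1.03. Grm3, a glutamate receptor mostly of astrocytes, fell by 0.46. Each of these 6 kept its call without replicates 6 and 7, though the change of Grm3 went from -0.46 to -0.21. Dbn1, the actin-binding drebrin of spines, rose by 0.38. Of 28 ionotropic glutamate receptor genes 6 rose and 0 fell, and 2 and 0 without replicates 6 and 7. Of 7 metabotropic ones 3 rose and 1 fell (3 and 2), and of 19 GABA and glycine receptor genes 2 rose and 2 fell (2 and 2). The shares over all tested genes were 10.7% raised and 7.76% lowered, and 4.93% and 3.57% without those replicates.

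Of the 16 granule neuron markers 3 rose and 0 fell, and without replicate 8 2 rose and 1 fell. For all tested genes the shares were 10.7% and 7.76%, and 12.8% and 8.27% without replicate 8. Without replicate 8 the raised count of the list did not exceed that share. Lct was at 60.3, 52.6, 50.3 and 34.8 TPM in p16 KO CTL and at 71.1, 77.5, 72.5 and 98.8 TPM in p16 KO RUN (0.64, SE 0.17), and Pdzd2 at 25.6, 18.0, 15.8 and 10.7 TPM and then at 34.3, 25.7, 33.3 and 44.0 TPM (0.94, SE 0.24). Prox1, Calb1 and C1ql2 had log2 fold changes of 0.52, 0.29 and 0.28 and did not pass. All 5 were lowest in sedentary replicate 8 and highest in running replicate 16, the libraries with the lowest and highest granule marker sums. Without replicate 8, Lct and Pdzd2 kept their calls at 0.47 and 0.73, and the median over the 16 markers went from 0.26 to 0.07.

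Markers of CA1 neurons were highest in sedentary replicate 8. Of 10 CA1 markers, 2 fell and 0 rose, and 5 fell without replicates 6 and 7, when replicate 8 weighs more. Pou3f1 lay at 13.1, 7.66, 6.38 and 33.2 TPM in p16 KO CTL and at 4.59, 9.67, 3.02 and 4.86 TPM in p16 KO RUN (-1.31, SE 0.51), and Fibcd1 at 27.1, 16.8, 10.2 and 63.9 TPM and then at 14.9 to 21.1 TPM without passing. Without replicate 8, 0 of the 10 passed. Gabra3, a GABA receptor subunit, was likewise highest in replicate 8, at 25.6 TPM against 14.0 to 14.6 TPM in the other sedentary libraries, and fell by 0.53, or by 0.33 without that library. Of 10 markers of CA3, a further hippocampal field, 3 fell and 0 rose, with a median log2 fold change of -0.32. Without replicates 6 and 7, 3 of them fell, and without replicate 8, 2 fell, with a median of -0.23. The lowered share over all tested genes was 7.76%, or 3.57% without replicates 6 and 7 and 8.27% without replicate 8. The part of the dissection in these values was not tested.

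Some myelin genes fell. Of 14 oligodendrocyte markers, 6 fell and 0 rose, with a median log2 fold change of -0.38. The lowered share over all tested genes was 7.76%, or 3.57% without replicates 6 and 7 and 8.27% without replicate 8. Mbp, myelin basic protein, was at 917.2, 1018, 1502 and 1540 TPM in p16 KO CTL and at 731.8, 788.7, 905.8 and 664.9 TPM in p16 KO RUN (-0.72, SE 0.20), with no overlap. The marker sum was 1733 to 2861 TPM in p16 KO CTL and 1389 to 1788 TPM in p16 KO RUN, so the sums overlapped. Without replicates 6 and 7, 3 fell, among them Mbp and Mobp, and without replicate 8, 2 did.

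Genes of protein synthesis and respiration fell in large numbers, and their number depended on the libraries that stood apart. Of 82 genes of the cytosolic ribosome, 48 fell and 0 rose, with a median log2 fold change of -0.27, and of 84 nuclear-encoded genes of oxidative phosphorylation 26 fell and 0 rose, with a median of -0.18. Without replicates 6 and 7, 6 and 3 fell, with medians of -0.07 and -0.06, and without replicate 8 76 and 19 fell, with medians of -0.34 and -0.19. Lowered genes made up 7.76% of all tested genes, 3.57% without replicates 6 and 7 and 8.27% without replicate 8. Malat1, a nuclear noncoding RNA, was at 457, 123, 67.1 and 359 TPM in p16 KO CTL and at 634, 626, 606 and 609 TPM in p16 KO RUN. Its log2 fold change was 1.62, and 0.59 without replicates 6 and 7. Meg3 lay at 107 and 91.3 TPM in these replicates, against 550 and 647.7 TPM in the other sedentary and 473.5 to 624.4 TPM in the running libraries. Of 16 tested nuclear long noncoding RNAs, 2 rose and 2 fell, with a median log2 fold change of 0.47. Without replicates 6 and 7, 1 rose and 3 fell (median -0.12), and without replicate 8, 9 rose and 1 fell (median 0.69). Raised genes made up 10.7% of all tested genes, 4.93% without replicates 6 and 7 and 12.8% without replicate 8. The cause of this shift between nuclear and ribosomal transcripts was not tested. Rps27 lay at 764.4 to 1035 TPM in the sedentary libraries and at 670.8 TPM in running replicate 14, but at 12.6 to 15.7 TPM in the other running libraries. Both levels were also found within each p16 WT group, so the value is uncertain. Ribosomal protein genes have near-identical copies among which reads can be split, but whether this applies to Rps27 was not tested.

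Calls over all genes also became fewer without replicates 6 and 7, from 10.7% to 4.93% raised and from 7.76% to 3.57% lowered. Without replicate 8 they became more, with 12.8% raised and 8.27% lowered. Further groups are given in the same way. Of 70 genes of collagens and extracellular matrix, 16 rose and 2 fell, against 7 and 2 without replicates 6 and 7 and 21 and 3 without replicate 8. The 18 markers of endothelium and mural cells, which make matrix, moved beside them: they summed to 293.0, 171.9, 178.2 and 295.9 TPM in p16 KO CTL and to 249.0 to 360.8 TPM in p16 KO RUN, and 3 rose and 0 fell, with a median log2 fold change of 0.39 that was 0.015 without replicates 6 and 7. The 15 markers of meninges and fibroblasts summed to 288.3 to 581.3 and to 274.1 to 644.1 TPM, and 1 rose and 1 fell. Their part in the collagen result was not tested. Bgn (biglycan) and Col18a1 kept their calls, with 0.55 and 0.87 in all libraries. Of 15 microglia markers, 4 fell, against 0 without them and 10 without replicate 8. Of 32 genes of oxidant defence, 5 rose and 11 fell, against 5 and 5, and against 4 and 13 without replicate 8. Prdx6, a peroxiredoxin, and Gsta4, a glutathione transferase, fell by 0.80 and 0.45 and kept their calls. Of 21 clock genes 2 rose and 5 fell, against 1 and 0 without replicates 6 and 7 and 1 and 5 without replicate 8.

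**Figure D4:**
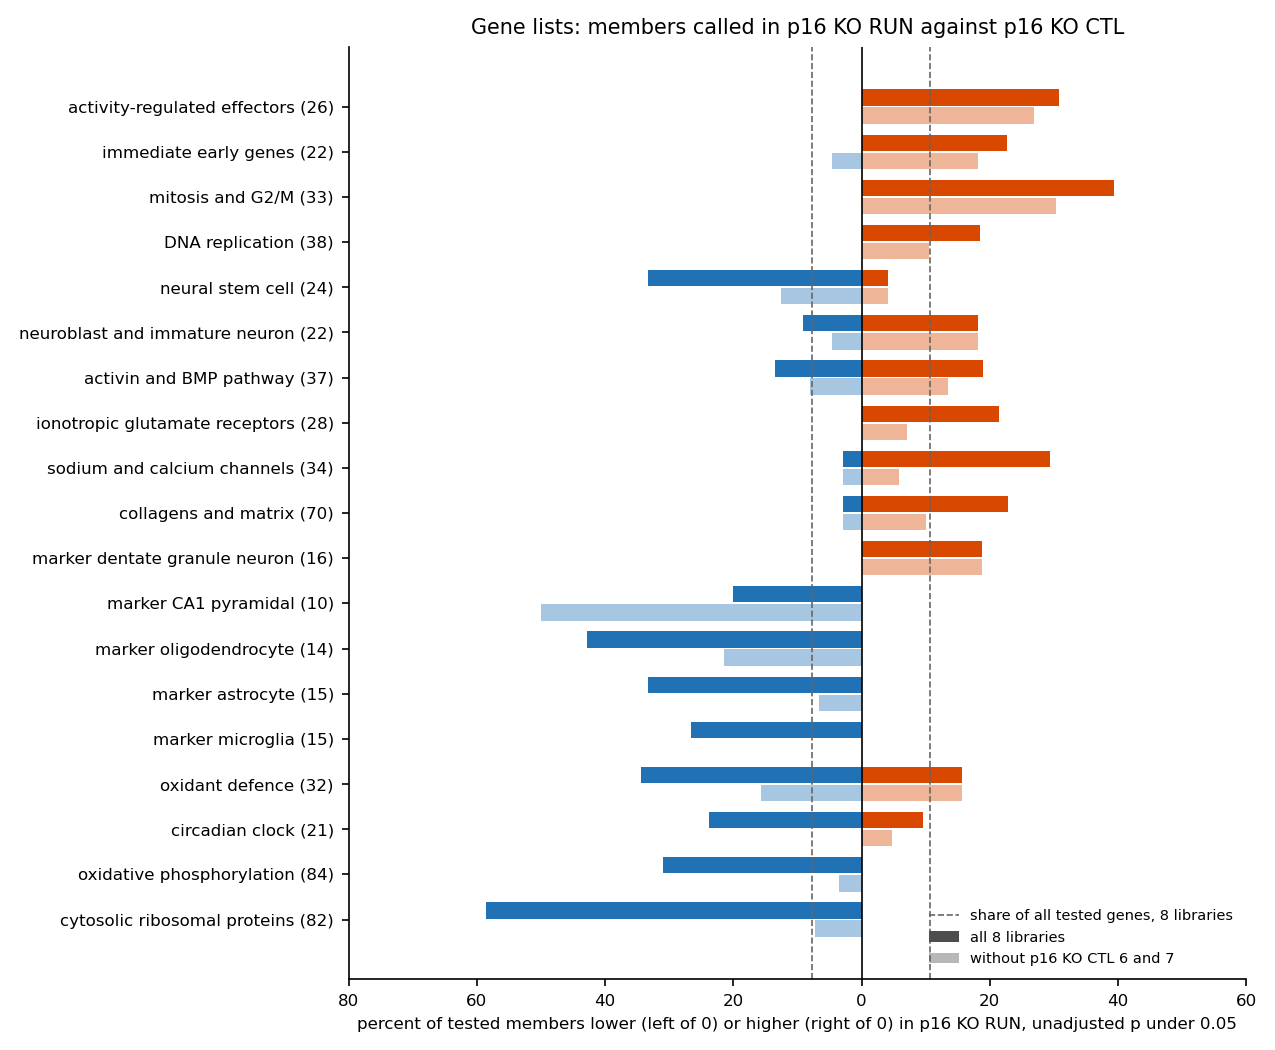
For 19 gene lists (number of tested members in parentheses), bars give the percent of members that fell (blue, left of 0) or rose (orange, right of 0) at an unadjusted p under 0.05, solid with all 8 knockout libraries and pale without p16 KO CTL replicates 6 and 7. Dashed lines mark the shares over all tested genes, 10.7% raised and 7.76% lowered. The bar of lowered ribosomal protein genes shrinks from 48 to 6 of 82, that of raised mitosis genes from 13 to 10 of 33.

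The study's text names genes as raised or lowered by running in the knockout. They were chosen on these libraries, so their directions are not independent evidence. Of 9 named synaptic regulators 9 rose, of 8 tested genes of cycle and proliferation 7 rose, of 4 oxidant and lipid genes 4 rose, and of 10 lowered genes 8 fell. Lepr, the leptin receptor, was at 0.752, 0.219, 0.411 and 0.565 TPM and then at 1.39, 1.00, 1.55 and 2.11 TPM (1.45, SE 0.34), and Gabbr2, a GABA-B receptor subunit, rose by 0.24. Rgs14, a regulator of G protein signals that marks CA2, fell from 86.1 to 102 TPM to 67.0 to 86.8 TPM (-0.39, SE 0.07), and Ramp3, a receptor-modifying protein, by 0.74. Zic4, Chrm5 and Glrb did not pass, with log2 fold changes of 0.68, -1.08 and -0.12. Chrm5 did pass without replicates 6 and 7 (-1.69, limma unadjusted p = 0.0033). The counts without replicates 6 and 7 were 6 of 9, 6 of 8, 3 of 4 and 9 of 10. Clcn1 then went from 0.96 to 0.34, while Trp73 and Nlrc5 lost their calls with folds of 0.41 (from 0.51) and 1.02 (from 1.09). Slc18a2, a vesicular monoamine transporter, also lost its call, at an unchanged fold of 0.43 (limma unadjusted p = 0.0503).

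The running effect in the wild type was measured in libraries of its own, so it can be set beside that of the knockout. Over all tested genes 61.5% had the same sign in both genotypes. Of the 43 genes with an adjusted p under 0.1 in the knockout, 38 raised and 5 lowered, 42 had the same sign in p16 WT and 24 also passed the unadjusted threshold there (55.8%, against 4.82% of all genes), while 18 had an interaction of genotype and running at an unadjusted p under 0.05 (41.9%). As these genes were picked for their effect in the knockout, which is part of the interaction, nothing is read from the latter share. Slc27a3, with 0.94 in the knockout and 0.37 in p16 WT, was one of the 18 (interaction 0.57, limma unadjusted p = 0.034). Inhba rose by 1.45 in p16 WT, from 4.65 to 7.40 TPM to 9.27 to 25.3 TPM, and the difference between genotypes was 0.06 (limma interaction, unadjusted p = 0.88). Nptx2, Hectd2, Fst and Acvr1c rose by 1.24, 1.16, 1.54 and 0.82 in p16 WT, with interactions between -0.17 and 0.14 that did not pass. The SE of these interactions lay between 0.24 (Acvr1c) and 0.62 (Fst), and for Inhba it was 0.40, so equal responses are not shown by these values.

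The difference itself was tested by the interaction of genotype and running. It had an unadjusted p under 0.05 for 947 genes (5.47%, with 3.0% higher and 2.47% lower in the knockout) and an adjusted one for 0 in limma. The unadjusted count was 1972 with p16 KO CTL replicate 5 left out and 2378 with replicate 2 of p16 WT CTL left out, a library in which the nuclear noncoding RNAs summed to 2258 TPM, against 3029 to 3642 TPM in the other wild-type libraries. Of the mitosis genes, 9 of 33 had a higher running effect in the knockout and 0 a lower one, and without replicates 6 and 7 6 did (1.66% of all genes higher). In p16 WT, 0 of the 33 rose and 2 fell, with a median log2 fold change of -0.07. Top2a lay at 0.375, 0.155, 0.546 and 0.451 TPM in p16 WT CTL and at 0.242, 0.221, 0.125 and 0.523 TPM in p16 WT RUN, an interaction of 1.56 on the log2 scale (limma unadjusted p = 0.0064). For Cdk1 it was 1.53 (unadjusted p = 0.015) and for Mki67 1.05 (0.016), but for Mki67 it was 0.785 (0.088) without replicates 6 and 7. Eomes, at 0.115 to 0.538 TPM in p16 WT CTL and 0 to 0.237 TPM in p16 WT RUN, gave 2.07 (0.0031). Its log2 fold change in p16 WT was -1.09 and did not pass (limma unadjusted p = 0.052). Some values of Cdk1 and Eomes lay below the 0.1 TPM added before the logarithm, so the size of both interactions depends on that constant. Lpin2 differed by 0.33 (0.0025), Rgs14 by -0.42 (0.00057), and Nog by -0.87 (0.0093, or 0.082 without replicates 6 and 7).

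**Figure D5:**
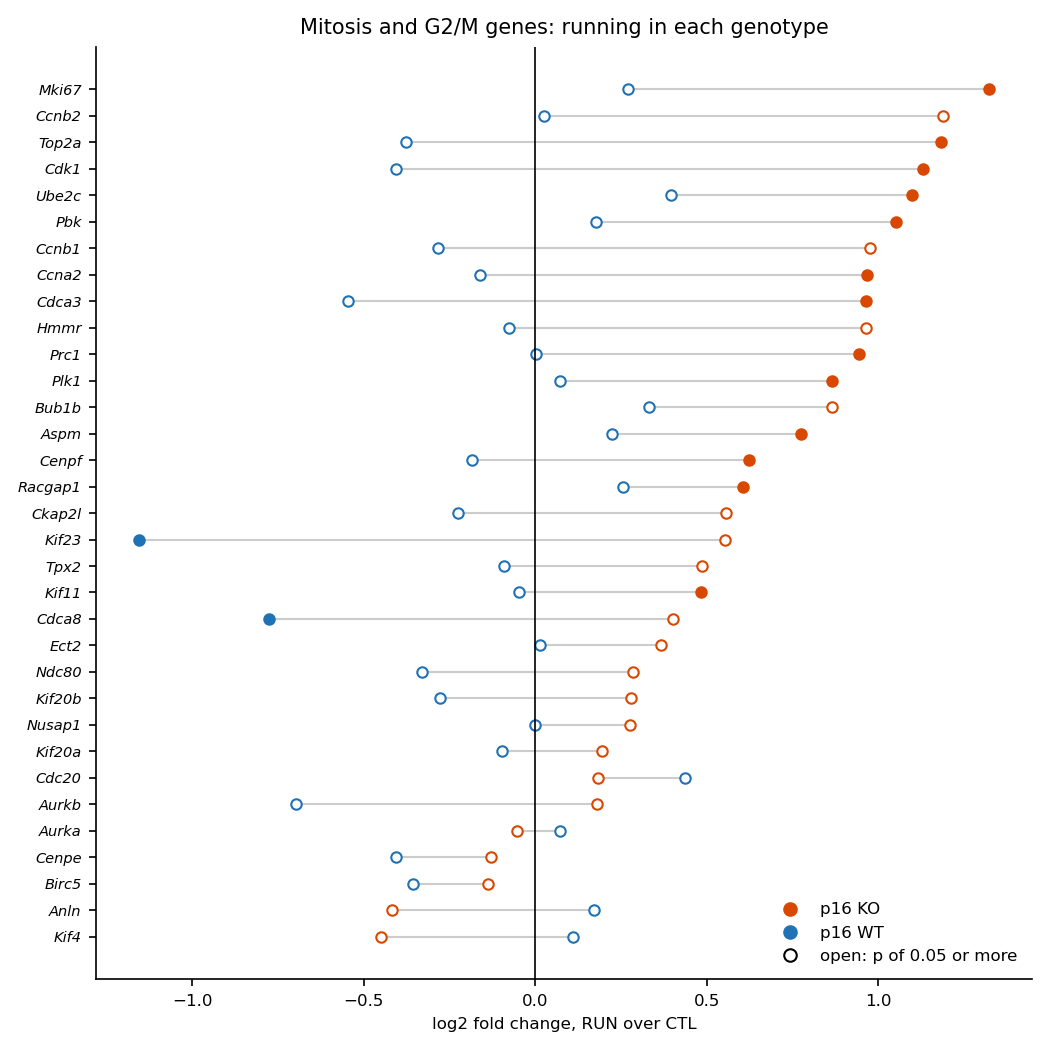
Log2 fold change of running (x, RUN over CTL) for each of the 33 tested genes of mitosis and G2/M (y), in p16 KO (orange) and p16 WT (blue), joined by a grey line. Filled points passed the unadjusted threshold. The knockout holds 13 filled points, all right of 0, and the wild type 2, both left of 0.

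The 10 genes of smallest interaction p with separated knockout groups were all lowered in the knockout and above 0 in p16 WT. Picking by the interaction favours opposite signs in the genotypes, so nothing is read from these signs. Tmed7 and Tmed5, cargo receptors of the early secretory pathway, fell by 0.18 and 0.31 in p16 KO RUN, with interactions of -0.34 (limma unadjusted p = 0.000297) and -0.49 (0.00048). Tmx1, a thioredoxin-like protein of the endoplasmic reticulum, and Dynll2, a dynein light chain, differed by -0.40 and -0.53. Mzt1, Tceb1, Purb, Galk1, Ctbp2 and Rgs14 completed the 10, with -0.33 to -0.99. Each had an interaction p under 0.05 without replicates 6 and 7, in a fit that reuses libraries on which they were picked.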

How the data were processed

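The 8 knockout and 8 wild-type libraries were grouped by their labels. According to the study's methods and the submitters' processing notes, the authors demultiplexed with bcl2fastq 2.20, masked adapters with cutadapt 1.11, trimmed with ERNE, aligned to mm10 with STAR and quantified genes with StringTie. The deposited TPM and FPKM values are its length-corrected abundances. The deposited coverage values, a mean per base, served with FPKM only for depth.

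TPM was summed per gene name and scaled by the median ratio over the 13226 genes that reached 1 TPM in each of the 16 libraries. Genes averaging 0.1 TPM or more were fitted on log2(scaled TPM + 0.1) by limma 3.58.1 in R 4.3.3 with a variance trend (8 libraries a fit, 16 for the interaction). Summaries used Python 3.11 (pandas, numpy). Simulated data for running in p16 KO on 17317 genes had normal noise drawn independently for each gene. Changes were placed only in genes averaging at least 1 TPM. There, 93% of 100 genes changed by 1 and 82% of 100 changed by 0.5 on the log2 scale passed the unadjusted threshold, and 5.21% of unchanged ones. These rates do not cover changed genes below 1 TPM or shifts shared by many genes of a library.

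Genes and lists were chosen with earlier results of these data known. Named are genes with an adjusted p under 0.05, the 15 raised and 15 lowered genes of smallest p (mean of at least 1 TPM, no overlap, no predicted genes), up to 4 called and the defining members of lists, genes of the study's text, 10 genes of smallest interaction p, and Cdkn2a. Some list members were named after their values were seen. Nothing in the labels says that the libraries differ in batch. Of the 34 gene and 17 marker lists, that of mitochondrially encoded messenger RNAs had 0 genes in the tables. Results for some genes are not reported here.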

Additional observations from a re-analysis of the deposited data

Results flagged for a closer look

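Among the groups of 4 libraries, some genes had 1 library far from the other 3 by Dixon's criterion on the log2 scale, which chance meets in about 1 of 20 groups. In p16 KO CTL these were replicate 8 for Gabra3 (25.6 TPM), Igfbp4 (74.9), Lct (34.8) and Psme1 (84.6), and replicate 7 for Acvr2b (2.51) and Rgs14 (86.1 TPM). In p16 KO RUN they were replicate 13 for Cdkn2a (0.413 TPM, with 0 in the others), Cdt1 (1.13), Fosl2 (39.2) and Tmed5 (23.8), replicate 14 for Grm7 (63.6), Homer2 (5.09) and Rps27 (671 TPM), and replicate 16 for C1ql2 (557), Ccna2 (3.05) and Pou3f3 (54.6 TPM).

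The effect of running differed between the genotypes at an unadjusted limma interaction p under 0.01 for 20 of the genes named here. None of the 20 passed after Benjamini-Hochberg adjustment over all genes. Some of them, such as Tmed7 and Mzt1, were named because of their small interaction p. The count is therefore partly set by that choice, and nothing is read from it. Values are the effect in p16 KO minus that in p16 WT, on the log2 scale. It was higher in the knockout for Eomes (2.07), Top2a (1.56) and Lpin2 (0.33). It was lower for Ctbp2 (-0.99), Nog (-0.87), Efhd1 (-0.60), Dynll2 (-0.53), Galk1 (-0.52), Tceb1 (-0.49), Tmed5 (-0.49), Sh3bgrl (-0.43), Rgs14 (-0.42), Tmx1 (-0.40), Fam103a1 (-0.38), Mrpl23 (-0.35), Pou3f3 (-0.35), Purb (-0.34), Tmed7 (-0.34), Mzt1 (-0.33) and Glrb (-0.26).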

How the results depend on the processing

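The tables give no read counts, so the counting error of genes near 1 TPM or below is not known. No paired analysis was possible because the groups share no replicate number. Of 113 called genes named here, 0 changed sign under any setting run, 13 lost the call without p16 KO RUN replicate 16, and 12 without p16 KO CTL replicates 6 and 7, a setting chosen after seeing the data. All settings reuse libraries on which these genes were called.

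The 3200 unadjusted calls in p16 KO became 1472 without those replicates, 2068 with the nuclear RNA score as covariate, and 2023 (without replicate 7) to 4733 (without replicate 5) on leaving out 1 library. TPM as deposited gave 2500 raised and 709 lowered genes (77.9% raised, with a median shift of 0.0822 over all genes), quantile normalization 1534 and 1546 (49.8%), against 58.0% in the values reported. The 3 adjusted calls became 6 with a mean of at least 1 TPM or with robust moderation, 1 with no filter or with quantile normalization, and 0 with all 16 libraries in 1 fit, without the variance trend, with the nuclear covariate or without replicates 6 and 7, and ranged from 0 to 178 (without replicate 5) on leaving out 1 library. The 1799 genes without overlap became 3126 without replicates 6 and 7, where fewer libraries are compared, and 2071 to 4073 on leaving out 1 library. The 834 calls in p16 WT ranged from 536 to 1023 in that way. The 947 interaction calls became 601 without replicates 6 and 7 and ranged from 612 to 2378 on leaving out 1 library, with p16 WT CTL replicates 3 and 2 left out, respectively, and the 0 adjusted ones from 0 to 1. The causes were not tested.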

Other observations

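Counts for further gene lists in p16 KO RUN are given at an unadjusted limma p under 0.05. They stand beside 10.7% raised and 7.76% lowered over all tested genes, and several lists lie at or below these shares. Without p16 KO CTL replicates 6 and 7 the shares were 4.93% and 3.57%, and without replicate 8 they were 12.8% and 8.27%. Of 81 potassium channel genes, 10 rose and 3 fell, and 8 and 2 without p16 KO CTL replicates 6 and 7. Kcnj2 and Kcnj5, inward rectifiers, rose by 0.82 and 0.91 on the log2 scale. Of 37 genes of presynaptic release, 7 rose and 3 fell (3 and 2 without those replicates), with Syn3, a synapsin, at 0.68 and Syt4, a synaptotagmin induced by activity, at -0.29. Of 31 postsynaptic scaffold genes, 5 rose and 1 fell, the latter being Homer2 at -0.78, which lost its call without those replicates (-0.83, limma unadjusted p = 0.102), when 4 rose and 0 fell. Of 42 monoamine, acetylcholine and peptide receptors, 8 rose and 5 fell, but 5 rose and 9 fell without those replicates, with Sstr2, a somatostatin receptor, at 0.61 and Oprd1, the delta opioid receptor, at 0.50.

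The same shares over all tested genes apply to the next lists. Of 17 glucocorticoid response genes, 4 rose and 3 fell, and 4 and 0 without replicates 6 and 7, with Sgk1, a kinase induced by the hormone, at 0.47. Of 38 genes of lipid metabolism, 5 rose and 3 fell, against 3 and 1 without replicates 6 and 7 and 5 and 9 without replicate 8, with Lrp8, a reelin and apolipoprotein E receptor, at 0.48 and Lpl, lipoprotein lipase, at -0.57. Of 8 neurotrophins and receptors, 3 rose and 1 fell, with Ntrk3, the receptor of neurotrophin 3, at 0.53 and Ngfr, the low-affinity receptor, at -1.01, a call lost without replicates 6 and 7 (-0.79, limma unadjusted p = 0.0759). Of 43 Wnt genes, 0 rose and 2 fell, and 0 and 0 without those replicates. Of 28 Notch genes, 3 rose and 0 fell (1 and 0). Of 28 chaperones, 0 rose and 4 fell (0 and 4). Of 23 growth factor genes tied to exercise, 1 rose and 4 fell (2 and 2), with Igfbp4, an inhibitor of IGF, at -0.43. Of 28 genes of glucose and lactate supply, 1 rose and 5 fell (1 and 1). Of 39 proteasome genes, 0 rose and 4 fell (1 and 1).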
